A study of Mus musculus with 8 samples.

Results

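The libraries described here are the 4 that their titles place at 2 h, out of 8 in the series: 2 labelled ZMYND11 KO and 2 labelled WT, compared across all genes. RNA was sequenced from NIH3T3, an established line of mouse embryonic fibroblasts that the labels assign to the Swiss albino strain, grown in DMEM with donor bovine serum. By label, the WT cells were unedited and the KO cells had lost Zmynd11 through CRISPR editing, and the cells of both 2 h groups were exposed for 2 h to 100 units/ml of recombinant mouse IFN-β (interferon-beta). By label, then, both groups share the agent and differ in genotype, but the levels of Zmynd11 and of interferon genes given below go against some of the labels. The other 4 libraries, labelled WT 0 h and KO 0 h (2 each), received no agent by label and served to estimate the spread and as a second, separate pair of the same labels. The labels name NIH3T3 as the source and MEFs (mouse embryonic fibroblasts) in the protocol for extraction, and no clone, guide, edited position or batch is given in the sources used here. Whether the 2 libraries of a group came from different cultures is not said in the labels, so that p-values reflect the spread among these libraries alone, and this spread may be technical.

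IFN-β is a type I interferon. It binds the receptor chains Ifnar1 and Ifnar2, whose kinases Jak1 and Tyk2 phosphorylate Stat proteins. A complex that holds Stat2 and Irf9 binds the interferon-stimulated response element (ISRE) in the promoters of antiviral genes, and a different element, GAS, is also bound by Stat proteins. The genes so induced encode sensors of foreign nucleic acid, antiviral effectors, the ubiquitin-like modifier Isg15 with its enzymes, GTPases of cell-autonomous immunity, the peptide supply of class I molecules and brakes such as Usp18 and Socs1. Zmynd11 binds chromatin through a methyl mark on the histone variant H3.3 in transcribed genes.

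The promoters of 8 genes that carried the difference between the labels are shown so that the elements named above can be seen in place. Only promoters with a match upstream of the start were shown, with the window set to include it. They do not stand for all higher genes. Each window is 80 bases long and lies upstream of the gene start, from RefSeq on GRCm38.p6. It is written 5′ to 3′ in the direction of the gene. Counted from the start, windows end at base -1 for Oas1a and Igtp, -20 for Irgm2 and -22 for Isg15. They end at -41 for Ifit1, -47 for Irf1, -169 for Cxcl10 and -171 for Stat2. Capitals mark matches on either strand to the ISRE core, which is GAAA, any 2 bases and GAAA again, with overlapping matches joined. In Irf1 they mark a match to the GAS core TTCNNNGAA, where N is any base. A GAS core also lies in the Irgm2 and Igtp windows, before the ISRE core, and is left in small letters there.
Ifit1: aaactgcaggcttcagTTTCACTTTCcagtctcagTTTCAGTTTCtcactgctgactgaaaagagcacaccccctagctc
Isg15: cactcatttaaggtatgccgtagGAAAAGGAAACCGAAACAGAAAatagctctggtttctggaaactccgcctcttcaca
Oas1a: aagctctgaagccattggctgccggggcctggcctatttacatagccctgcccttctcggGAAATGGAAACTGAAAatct
Irgm2: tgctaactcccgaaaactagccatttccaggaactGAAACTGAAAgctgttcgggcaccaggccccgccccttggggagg
Igtp: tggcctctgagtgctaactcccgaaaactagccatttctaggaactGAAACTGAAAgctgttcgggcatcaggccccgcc
Stat2: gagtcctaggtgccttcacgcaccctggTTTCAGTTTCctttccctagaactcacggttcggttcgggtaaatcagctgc
Cxcl10: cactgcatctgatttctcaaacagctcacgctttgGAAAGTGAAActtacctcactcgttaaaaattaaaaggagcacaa
Irf1: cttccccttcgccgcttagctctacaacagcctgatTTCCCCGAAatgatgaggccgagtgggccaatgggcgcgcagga

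The windows lie at chr19:34640769-34640848 for Ifit1 and chr4:156200840-156200919 on the reverse strand for Isg15. That of Oas1a is at chr5:120907526-120907605 on the reverse strand, and those of the neighbours Irgm2 and Igtp are at chr11:58214878-58214957 and chr11:58199476-58199555. Stat2 is at chr10:128270248-128270327, Cxcl10 at chr5:92349058-92349137 on the reverse strand and Irf1 at chr11:53769888-53769967, and windows with no strand named are on the forward strand. Aligned at their ISRE core, the Irgm2 and Igtp windows share 67 of 69 bases, and of the 3 matches in Isg15 each overlaps the next. The promoter table held 162 of the 204 genes that were higher at 2 h (79.4%) and 10162 of the 12807 tested genes (79.3%). Since fewer than 80% had an entry, a comparison of motif shares is void. As a description of the matched genes, 56 of 162 higher genes (34.6%) held an ISRE core in the 250 bases before to 50 bases after the start, and 371 of 10162 tested genes did (3.65%). Of all 32851 promoters in the table, 3.44% held the ISRE core. The GAS core was found in 26 of the 162 (16.0%) and in 8.30% of all promoters. A match describes the letters in this window and shows no binding.

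Zmynd11 was examined first, as the check of the genotype labels. The libraries labelled WT 2 h held 59 and 65 reads of Zmynd11 and those labelled KO 2 h held 72 and 67, which is 3.18 and 3.61 against 3.31 and 4.69 CPM (reads of a gene over all gene reads of the library, scaled). Where pairs of values are set against each other in what follows, the 2 libraries with the WT label come first. No difference between the labels passed the test at 2 h (log2 fold change 0.19, SE 0.19, adjusted p = 1). The libraries labelled 0 h held far more, 123 and 120.3 CPM under the WT label and 137 and 131 CPM under the KO label, the latter against that label. The level of the targeted gene therefore did not separate the genotype labels at 2 h, and it was low with the WT label, against that label. At 0 h the contrast was 0.15 (adjusted p = 0.364). Zmynd11 thus divided the libraries by their time label, while interferon-induced genes divided them mostly by their genotype label: the means of Ifit1 were 212 ± 23.3 CPM in KO 0 h, which by label had no interferon, and 2.83 ± 1.57 CPM in WT 2 h, which by label had it (± SD, n = 2 each). Whether the labels KO 0 h and WT 2 h are exchanged was not tested. If they were, the comparison at 2 h would be one of treatment and not of genotype, so every direction below is only a direction between labels.

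With the KO label at 2 h, genes of the type I interferon response were higher than with the WT label, and almost nothing was lower. Of 12807 tested genes, 205 passed the test (1.6%, edgeR quasi-likelihood, Benjamini-Hochberg adjusted p under 0.05), of which 204 were higher (1.59%) and 1 was lower (0.00781%) with the KO label at 2 h. The higher genes included the antiviral effector Ifit1 (137-fold), the GTPase Irgm2 (46.2-fold), the modifier Isg15 (20.3-fold) and the transcription factor Stat2 (11.9-fold). At least 2-fold higher were 112 genes (0.875% of those tested), at least 4-fold 73 and at least 16-fold 21, while 92 of the 204 differed by less than 2-fold. The log2 fold changes of the 204 ran from 0.30 to 7.65 with a median of 1.22, beside a median of -0.01 and quartiles of -0.08 and 0.08 over all tested genes. In these bulk libraries more expressing cells and more RNA per cell cannot be told apart.

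For each of the 205 genes the 2 libraries of one label did not overlap with the 2 of the other. Over all tested genes, 14.9% were higher without overlap with the KO label at 2 h and 14.8% were lower. At an unadjusted p under 0.05 there were 494 genes higher and 171 lower. Of the 205 calls, 136 held in each of 15 other settings and 111 held when tested against a fold of 1.5. Among the 15 settings the calls were fewest, 147, without the library labelled WT 2 h replicate 2.

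**Figure D1:**
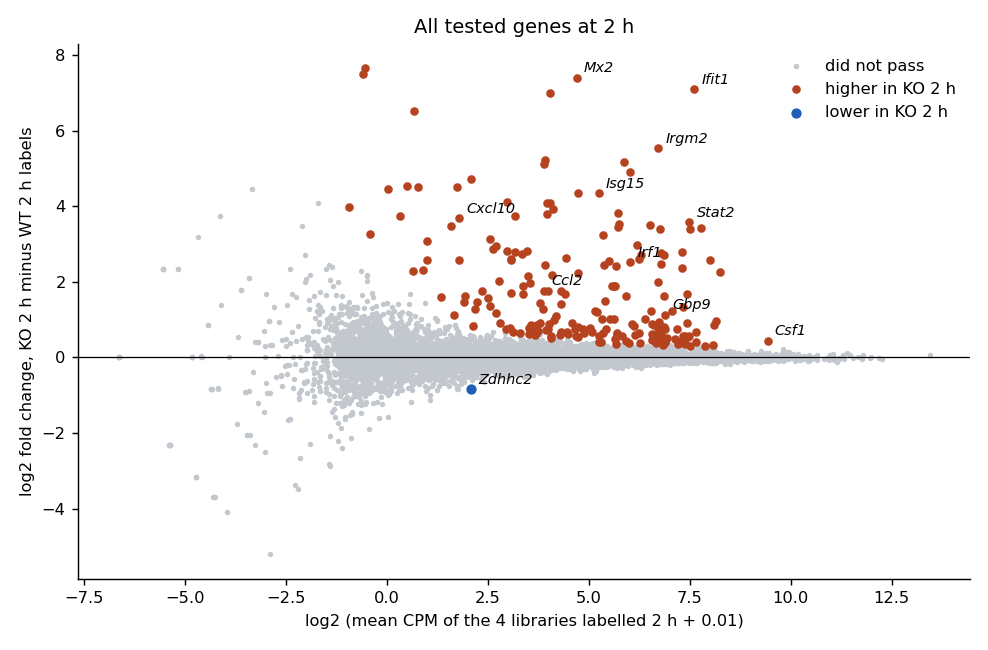
Log2 fold change between the KO and WT labels at 2 h (vertical axis) against the log2 of the mean CPM of the 4 libraries labelled 2 h plus 0.01 (horizontal axis), with 1 point for each of 12807 tested genes. The 204 genes that were higher are red and reach 7.65, and Zdhhc2, the 1 gene that was lower, is blue.

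The depths of the groups overlapped. Reads in genes summed to 17671612 and 16946107 with the WT label at 2 h and to 20767671 and 13671013 with the KO label, so that 1 read was worth 0.0459 to 0.07 CPM. Within the limit that 3 reads over a group allow, a gene without reads could stand at up to 0.0821 CPM in WT 2 h and 0.0832 CPM in KO 2 h, counting error only. Among the libraries labelled 0 h, KO 0 h replicate 2 had reads in 17498 genes and the other 7 libraries of the series in 14847 to 15945.

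The interferon pathway was followed from its ligands inward. None of 11 interferon genes had enough reads to be tested. Ifnb1, which encodes IFN-β itself, had 0 and 0 reads with the WT label at 2 h and 0 and 2 with the KO label, and Ifne, an interferon of epithelia, had 5 and 9 against 14 and 2. A difference in interferon transcripts was thus not detectable at this depth, and 5 of the 11 genes had no reads in any of the 4 libraries.

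The receptor and its kinases did not pass the test. Of 8 tested genes of this group (9 listed) none was called, where 1.6% of all tested genes were. The median log2 fold change of the group was 0.06. Ifnar1, the first receptor chain, stood at 55.9 and 57.4 CPM with the WT label at 2 h and at 55.5 and 57.4 CPM with the KO label (log2 fold change -0.01, SE 0.09, adjusted p = 1). Ifnar2, the second chain, stood at 37.4 and 34.7 against 40.9 and 37.9 CPM in that order. The groups overlapped for Ifnar1 and lay apart by a small margin for Ifnar2 (log2 fold change 0.13, SE 0.11). Jak1 gave -0.09 (SE 0.07) and Tyk2 0.06 (SE 0.12). Jak2, a kinase of the related interferon-gamma receptor, had the highest value of the group at 0.22 (SE 0.09, adjusted p = 0.7996), and the chains of that receptor, Ifngr1 and Ifngr2, gave 0.00 and 0.13. Il10rb, a shared chain of other cytokine receptors, gave 0.05 (SE 0.12).

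The transcription factors downstream of the receptor were divided. Of 14 tested Stat and Irf genes (15 listed), 6 were higher (42.9%, beside 1.59% of all tested genes). None was lower and 8 did not pass, with a median of 0.79. The higher genes included Stat2 and Irf9, both of the ISRE-binding complex, and Irf1, Irf2 and Irf7. Stat2 stood at 27.4 and 28.4 CPM with the WT label at 2 h and at 352 and 312 CPM with the KO label (log2 fold change 3.57, SE 0.09, adjusted p = 3.21e-18). Irf9 stood at 16.1 and 15.9 against 83.7 and 87.4 CPM (log2 fold change 2.42, SE 0.11, adjusted p = 5.33e-14). For both the KO-labelled libraries lay several-fold above the WT-labelled ones, with replicates close together.

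Irf7, which amplifies interferon production, had 24 and 21 reads under the WT label and 354 and 244 under the KO label (log2 fold change 3.75, SE 0.23). Irf1, an early factor whose promoter above carries the GAS core, stood at 17.3 and 21.6 against 119.7 and 103 CPM (2.52, SE 0.11). Irf2, which binds the same element as Irf1, was higher by a smaller margin (1.01, SE 0.10). The factors that serve other cytokines did not pass: Stat3 stood at 119 and 126 against 152 and 144 CPM (log2 fold change 0.27, SE 0.08, adjusted p = 0.133) and Stat6 gave -0.02 (SE 0.08).

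**Figure D2:**
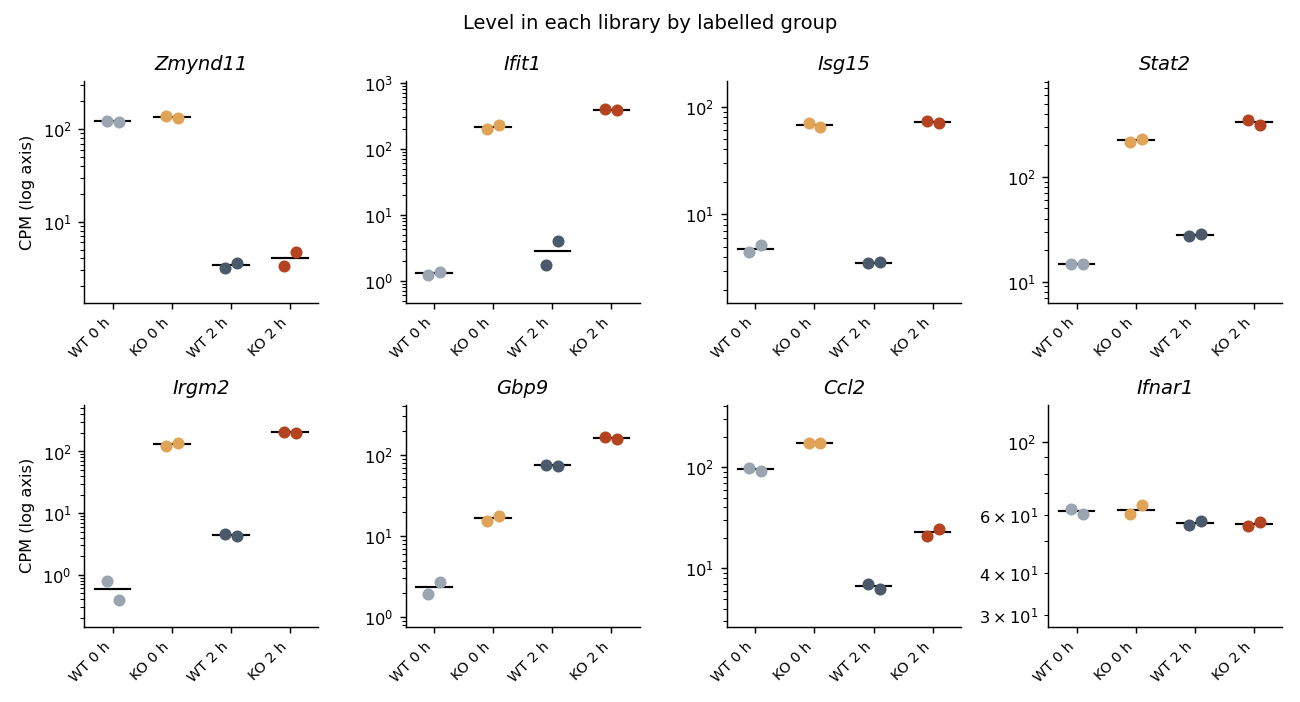
CPM on a log axis in each of the 8 libraries, by labelled group, for 8 genes; points are libraries and lines are group means. Ifit1, Isg15, Stat2 and Irgm2 were high under both KO labels, Gbp9 was higher under both 2 h labels than at 0 h, Ccl2 was lower under both 2 h labels, Zmynd11 was low under both 2 h labels and Ifnar1 stayed within a narrow band.

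Most antiviral effectors were higher. Of 29 tested effectors (35 listed), 23 were higher (79.3%, beside 1.59% of all tested genes). None was lower and 6 did not pass, with a median of 2.61. Ifit1, which binds foreign RNA that lacks a host cap, had 32 and 71 reads with the WT label at 2 h and 8625 and 5427 with the KO label. This is 1.73 and 3.94 against 396 and 379.9 CPM (log2 fold change 7.10, SE 0.17, adjusted p = 1.82e-15). The 2 libraries labelled WT 2 h differed from each other by more than 2-fold, and without replicate 2 of that group the log2 fold change was 7.80. Mx2, a dynamin-like GTPase that blocks viruses, had 3 and 8 against 1271 and 642 reads (log2 fold change 7.40, SE 0.28, adjusted p = 3.90e-15), and without the same library 8.26. Mx1, its neighbour, gave 4.54 (SE 0.59) and 5.48 without it.

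Active members of the 2′-5′ oligoadenylate synthetase family make a small nucleotide signal when they sense double-stranded RNA. Oas1b stood at 0.863 and 0.722 CPM under the WT label and at 33.4 and 25.7 CPM under the KO label (log2 fold change 5.21, SE 0.24, adjusted p = 9.18e-14). Oas3 stood at 0.701 and 0.9999 against 12.7 and 16.9 CPM (4.10, SE 0.27), and Oas1a, whose promoter is shown above, at 2.37 and 2.33 against 15.02 and 13.7 CPM (2.61, SE 0.22). Oas2 gave 2.27 (SE 0.45) but did not pass without WT 2 h replicate 1 (adjusted p = 0.144). Oasl1, a relative without enzymatic activity, had 8 and 5 against 11 and 12 reads and gave 0.85 (SE 0.58, adjusted p = 1).

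Rsad2, the enzyme viperin, had 2 and 3 reads under the WT label and 81 and 39 under the KO label (log2 fold change 4.51, SE 0.65, adjusted p = 4.69e-05). Ifit3, a partner of Ifit1, stood at 1.51 and 2.17 against 29.0 and 33.3 CPM (4.08, SE 0.20), and Rtp4, induced by interferon in many cells, at 2.48 and 2.5 against 49.9 and 51.5 CPM (4.34, SE 0.14). Ifit2, of the same family as Ifit1, differed by less, at 78.1 and 70.1 against 113 and 116 CPM (0.63, SE 0.08, adjusted p = 1.85e-05). Of the interferon-induced membrane proteins that block virus entry, Ifitm3 was higher (0.86, SE 0.08) and Ifitm2 did not pass (0.08, SE 0.08). Bst2, which tethers budding viruses to the cell, was higher by 1.199 (SE 0.12). The Ifit, Oas, Mx, Gbp and Trim genes have close relatives, and the counting left out reads with several map positions, so values of single members are uncertain.

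The Isg15 system was higher as a whole: 6 of 6 tested genes (7 listed), beside 1.59% of all tested genes, with a median of 2.20. Isg15 stood at 3.51 and 3.61 CPM with the WT label at 2 h and at 74.1 and 70.8 CPM with the KO label (log2 fold change 4.35, SE 0.13, adjusted p = 5.25e-17). Usp18, which removes Isg15 from proteins and also blocks the receptor, stood at 3.02 and 3.39 against 123 and 106 CPM (log2 fold change 5.16, SE 0.13, adjusted p = 3.84e-18). The activating enzyme Uba7 gave 2.146 (SE 0.18), the conjugating enzyme Ube2l6 1.75 (SE 0.15), and the ligases Herc6 1.68 (SE 0.15) and Trim25 2.26 (SE 0.08). The modifier and its remover had larger values than the enzymes that attach it, an order that was not tested.

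Of 13 tested interferon-inducible GTPases (18 listed), which act in cell-autonomous immunity, 11 were higher (84.6%, beside 1.59% of all tested genes). None was lower, and the median was 2.87. Irgm2 stood at 4.64 and 4.28 CPM under the WT label and at 209 and 203 CPM under the KO label (log2 fold change 5.53, SE 0.12, adjusted p = 3.20e-19). Its neighbour Igtp, with a nearly identical promoter window, stood at 3.29 and 5.05 against 137 and 114 CPM (log2 fold change 4.91, SE 0.15, adjusted p = 1.74e-16). Irgm1, the third of the group, stood at 75.6 and 71.8 against 468 and 408 CPM (2.57, SE 0.08). Among the guanylate-binding proteins, Gbp3 gave 3.93 (SE 0.20), Gbp7 3.79 (SE 0.20), Gbp10 3.12 (SE 0.28), Gbp6 2.87 (SE 0.28) and Gbp2 2.64 (SE 0.16). Gbp4, Gbp9 and Gbp11 differed less, by 1.89, 1.13 and 1.46, and are taken up again with the libraries labelled 0 h. Gbp11 did not pass without KO 2 h replicate 1 (adjusted p = 0.101) or WT 2 h replicate 2 (adjusted p = 0.141).

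Sensors of foreign RNA and DNA were higher in 15 of 24 tested cases (25 listed), or 62.5% beside 1.59% of all tested genes. Their median was 1.69 and none was lower. Ddx58, the RNA sensor RIG-I, stood at 30.6 and 26.3 CPM with the WT label at 2 h and at 198 and 185 CPM with the KO label (log2 fold change 2.75, SE 0.11, adjusted p = 1.64e-14). Its regulator Dhx58 gave 2.58 (SE 0.20) and Tlr3, the endosomal sensor of double-stranded RNA, 2.56 (SE 0.15). Mavs, the adaptor through which Ddx58 signals, stood at 27.1 and 33.3 against 28.8 and 26.2 CPM and did not pass (-0.13, SE 0.12). Ifih1, the second cytosolic RNA sensor, had 3 and 2 against 3 and 5 reads and was not tested.

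The HIN-200 family of DNA sensors was represented by Ifi202b, at 42.0 and 38.2 against 300.0 and 250.5 CPM (2.78, SE 0.14), and by Ifi203, Ifi204, Ifi205 and Mndal with log2 fold changes of 3.23, 2.61, 2.81 and 2.81. Aim2, the member that starts the inflammasome, stood at 74.0 and 68.4 against 80.5 and 69.3 CPM and did not pass (0.08, SE 0.09). Zbp1, which senses Z-form nucleic acid and can start necroptosis, had 8 and 18 against 60 and 25 reads and narrowly missed the threshold (log2 fold change 1.68, SE 0.44, adjusted p = 0.0549).

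Of 22 tested Parp, Dtx3l and Trim genes linked to interferon (25 listed), 20 were higher (90.9%, beside 1.59% of all tested genes). None was lower, and the median was 1.92. Parp14, an ADP-ribosyltransferase, stood at 16.1 and 13.6 CPM under the WT label and at 178 and 160.1 CPM under the KO label (log2 fold change 3.51, SE 0.11, adjusted p = 1.71e-16). Parp9 and its partner ligase Dtx3l gave 2.97 (SE 0.10) and 3.40 (SE 0.09). Helz2, a helicase, stood at 33.5 and 41.5 against 432 and 374 CPM (3.43, SE 0.10). Trim21, the cytosolic antibody receptor, stood at 8.74 and 8.89 against 95.05 and 98.6 CPM (3.46, SE 0.11), and Trim30a gave 2.48 (SE 0.11). Trim34a had few reads under the WT label, 4 and 14, against 156 and 54 (3.48, SE 0.44); it gave 2.82 without WT 2 h replicate 1 and 4.65 without replicate 2.

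**Figure D3:**
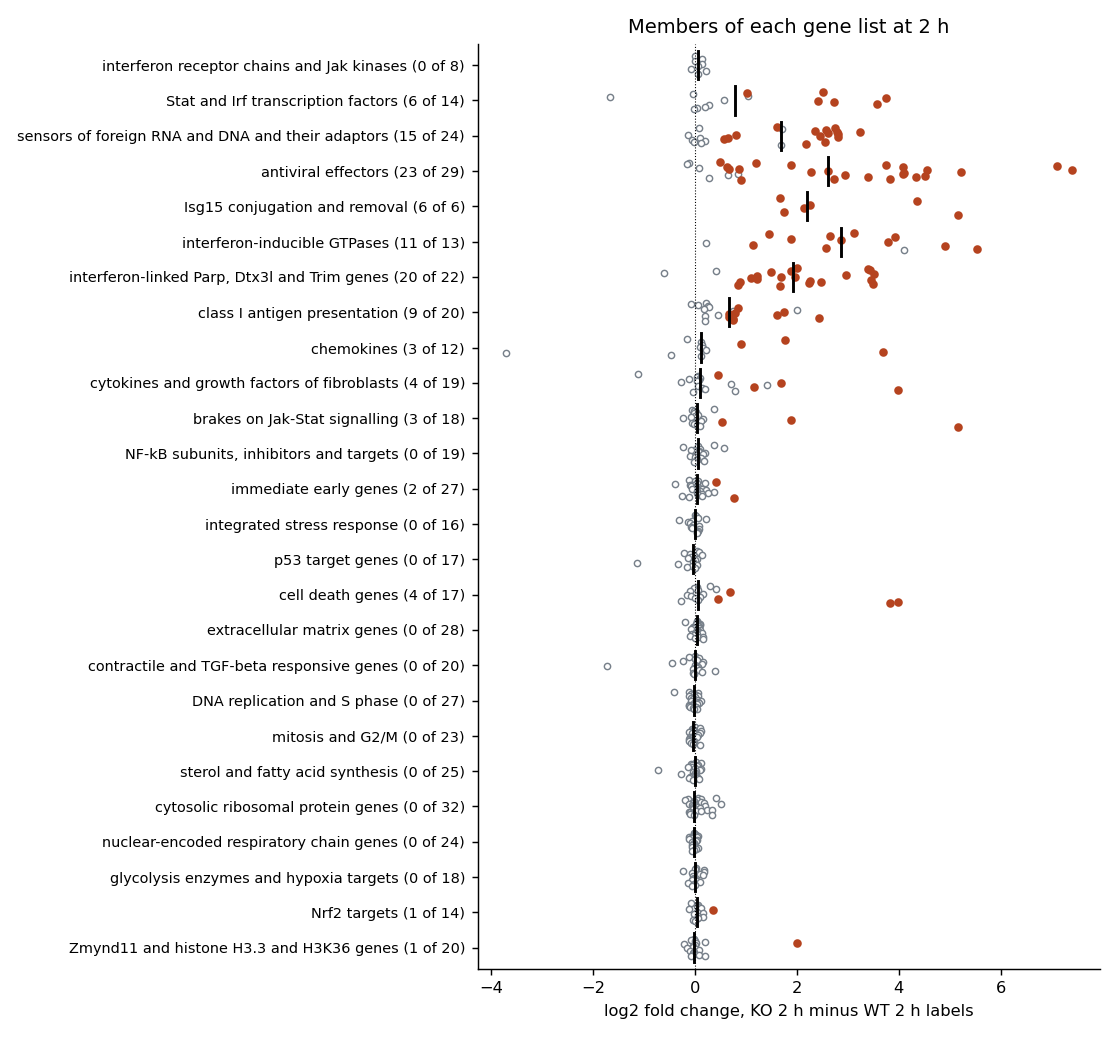
Log2 fold change between the KO and WT labels at 2 h for each tested member of 26 gene lists; filled points were higher and open points did not pass, bars mark list medians, and the counts give the higher members of those tested. The interferon effector, Isg15, GTPase and Parp and Trim lists have medians from 1.92 to 2.87, and those of matrix and mitosis are 0.05 and -0.04.

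Of 20 tested genes of class I antigen presentation (22 listed), 9 were higher (45%, beside 1.59% of all tested genes). None was lower and 11 did not pass, with a median of 0.67. Tap1, a chain of the peptide transporter, stood at 12.7 and 12.9 CPM with the WT label at 2 h and at 73.0 and 66.2 CPM with the KO label (log2 fold change 2.44, SE 0.12, adjusted p = 2.30e-13), and its partner Tap2 gave 0.76 (SE 0.10). The immunoproteasome subunits Psmb9 and Psmb10 gave 1.62 (SE 0.27) and 0.67 (SE 0.11), and the loading factor Tapbp 0.74 (SE 0.08). H2-T24 and H2-M3, non-classical class I genes, gave 1.75 (SE 0.26) and 0.85 (SE 0.16). Of their relatives, H2-T22 gave 2.01 (SE 0.68, adjusted p = 0.290) and H2-T23 0.75 (SE 0.34, adjusted p = 0.849), and neither passed. The classical chain H2-K1 stood at 35.97 and 38.3 against 42.5 and 48.2 CPM and did not pass (0.28, adjusted p = 0.458), nor did the shared light chain B2m (853 and 817 against 1010.0 and 942 CPM, 0.23, adjusted p = 0.360). For both, the KO-labelled libraries lay above the WT-labelled ones without overlap. Nlrc5, the activator of class I genes, was higher (0.79, SE 0.17, adjusted p = 0.00815), but not without WT 2 h replicate 1, WT 2 h replicate 2 or KO 2 h replicate 1 (adjusted p = 0.301, 0.0561 and 0.275). H2-M3 did not pass without WT 2 h replicate 1 (adjusted p = 0.139) or KO 2 h replicate 2 (adjusted p = 0.0604).

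Of 12 tested chemokines (19 listed), 3 were higher (25%, beside 1.59% of all tested genes). Cxcl10, which draws activated T cells and whose promoter above carries an ISRE core, had 2 and 16 reads under the WT label and 146 and 86 under the KO label (log2 fold change 3.68, SE 0.37, adjusted p = 2.67e-07). The WT-labelled libraries differed 8-fold in its reads, and the log2 fold change was 2.83 without WT 2 h replicate 1 and 5.80 without replicate 2. Ccl2, which attracts monocytes, stood at 7.07 and 6.28 against 20.9 and 24.7 CPM (log2 fold change 1.76, SE 0.12, adjusted p = 3.02e-10). Its neighbour Ccl7 was also higher (0.91, SE 0.16) but not without WT 2 h replicate 2 (adjusted p = 0.0926). The neutrophil chemokines Cxcl1 and Cxcl5 did not pass (0.21, SE 0.15, and 0.11, SE 0.13), and Cxcl9 and Cxcl11, the other ligands of the receptor of Cxcl10, had no reads in the 4 libraries.

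Of 19 tested cytokines and growth factors (26 listed), 4 were higher (21.1%, beside 1.59% of all tested genes). None was lower, and the median was 0.10. Tnfsf10, the death ligand TRAIL, had 2 and 0 against 21 and 14 reads (log2 fold change 3.99, SE 0.76, adjusted p = 0.00155). This call rests on few reads: without WT 2 h replicate 1 the log2 fold change was 7.17, and without replicate 2 it was 3.09 and did not pass (adjusted p = 0.0690). Il15, a growth factor of natural killer cells, stood at 4.48 and 3.44 against 13.9 and 11.7 CPM (1.69, SE 0.24). Il6 gave 1.16 (SE 0.24) and did not pass without WT 2 h replicate 1, WT 2 h replicate 2 or KO 2 h replicate 1 (adjusted p = 0.107, 0.138 and 0.0829). Csf1, the growth factor of macrophages, stood at 568 and 601 against 825 and 766 CPM, a small difference with close replicates (log2 fold change 0.44, SE 0.07, adjusted p = 3.45e-04). The growth factors Vegfa, Hbegf and Fgf7 gave -0.03, 0.08 and -0.11 and did not pass.

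Of 18 brakes on Jak-Stat signalling, all tested, none was lower, with a median of 0.03. Higher were 3 (16.7%, beside 1.59% of all tested genes). These were Usp18, given above, and the kinase inhibitors Socs1 and Socs3. Socs1 stood at 3.34 and 5.44 CPM with the WT label at 2 h and at 15.9 and 16.7 CPM with the KO label (log2 fold change 1.89, SE 0.21, adjusted p = 1.72e-06). Socs3, which acts mainly on Stat3, stood at 20.9 and 22.2 against 33.2 and 29.3 CPM (0.54, SE 0.12, adjusted p = 0.00956). It did not pass without WT 2 h replicate 1, WT 2 h replicate 2 or KO 2 h replicate 1 (adjusted p = 0.274, 0.0805 and 0.296). The phosphatases Ptpn2 and Ptpn11 gave -0.07 (SE 0.08) and 0.01 (SE 0.08), and Socs5 gave -0.02 (SE 0.07).

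Over the 12 interferon lists together, 98 of 183 tested genes were higher (53.6%) and none was lower, with a median of 0.84. Members and lists were chosen with earlier results of these data known, so this share is no independent measure. The 12624 tested genes outside them had a median of -0.01 and held the other 106 higher genes. Those by the naming rule that are reported here were Gm6034, I830012O16Rik, Apol9b and Apol9a of the apolipoprotein L family and the Schlafen gene Slfn8. They stand outside the lists only because the lists do not name them, and I830012O16Rik lay in a run of higher genes with Ifit1 on chromosome 19. Gm6034 had 0 and 0 reads under the WT label and 34 and 16 under the KO label, at least 16.3-fold higher against 3 reads over the group, and did not pass without WT 2 h replicate 1 or replicate 2 (adjusted p = 0.0722 and 0.0671). Apol9b had 0 and 1 against 68 and 45 reads, with a log2 fold change of 6.52 that was 5.64 without WT 2 h replicate 1 and 8.86 without replicate 2. Apol9a gave 4.51 (SE 0.37) and 5.19 without WT 2 h replicate 1. I830012O16Rik stood at 0.647 and 0.9999 against 28.2 and 29.7 CPM (5.13, SE 0.22) and Slfn8 at 0.324 and 0.278 against 8.13 and 8.05 CPM (4.72, SE 0.34).

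Several higher genes outside the interferon lists have known roles, and these were chosen after their values were seen. Cd274, which encodes the checkpoint ligand PD-L1, stood at 8.63 and 8.67 CPM under the WT label and at 102 and 96.6 CPM under the KO label (log2 fold change 3.52, SE 0.12, adjusted p = 1.92e-16). Mov10, an RNA helicase that restricts retroelements, stood at 24.2 and 29.2 against 57.2 and 51.2 CPM (1.02, SE 0.11). Apobec1, a cytidine deaminase, gave 1.29 (SE 0.16) and Lgals9, a galectin of immune regulation, 0.58 (SE 0.08). Nampt, an enzyme of NAD synthesis, gave 0.59 (SE 0.09), and Elf1, an Ets transcription factor, 0.76 (SE 0.09). Each of these 6 calls held in all 15 other settings, the fold of 1.5 not counted.

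Genes without reads in one group were few-read genes. Of those reported here, besides Gm6034, the receptor-like gene Ccrl2 had 0 and 0 reads under the WT label and 14 and 4 under the KO label, at least 5.62-fold higher, and the cytoskeletal gene Add2 had 0 and 0 against 7 and 6, at least 4.52-fold higher. In the other direction, 2900092C05Rik had 5 and 8 against 0 and 0 reads, at least 4.29-fold lower. These 3 did not enter the test. Of the genes with reads in both libraries of one group and none in the other, 150 lacked reads in WT 2 h and 159 in KO 2 h.

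The 1 gene that was lower was Zdhhc2, a palmitoyltransferase. It stood at 4.42 and 6.44 CPM with the WT label at 2 h and at 2.76 and 3.36 CPM with the KO label (log2 fold change -0.85, SE 0.21, adjusted p = 0.0386). This call was lost without WT 2 h replicate 2 (adjusted p = 0.736), without KO 2 h replicate 1 (adjusted p = 0.459) and in a fit of the 4 libraries alone (adjusted p = 0.147).

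The higher genes often lay next to each other. Of 203 higher genes placed on the RefSeq gene order, 77 (37.9%) had an adjacent tested gene that was also higher, and of all 12741 placed genes 2.92% had such a neighbour. There were 27 runs of at least 2 adjacent genes and 11 of at least 3. On chromosome 1 a run of 7 held AI607873, Ifi204, Mndal, Mnda, Ifi203, Ifi202b and Ifi205, and on chromosome 7 a run of 6 held Trim6, Trim34a, Trim34b, Trim12c, Trim30a and Trim30d. Chromosome 5 held Gbp9, Gbp4, Gbp10, Gbp6 and Gbp11, and separately Oas2, Oas3, Oas1c, Oas1b and Oas1a. These 4 runs are families of related sequence. Other runs joined unrelated genes: Psme2, an activator of the proteasome, lay with the ubiquitin ligase Rnf31 and Irf9 on chromosome 14, and Agrn, a matrix proteoglycan, with Isg15 on chromosome 4. Agrn stood at 74.7 and 80.1 against 134 and 133 CPM (0.79, SE 0.08). Psme2 did not pass without WT 2 h replicate 2 (adjusted p = 0.489) or KO 2 h replicate 1 (adjusted p = 0.127), nor Trim6 without WT 2 h replicate 2 (adjusted p = 0.190). As no source used here gives the strand setting of the counting, reads of overlapping or antisense neighbours cannot be told apart.

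Most of the other pathways examined had few or no members that passed the test, and no member was lower. Of all tested genes 1.59% were higher. Among the cell death genes 23.5% were, among immediate early genes 7.41%, among Nrf2 targets 7.14% and among the histone H3 genes 5%. None of 19 tested genes of NF-kB signalling was called (median 0.07); its subunit Rela gave 0.04 (SE 0.08), its subunit Nfkb2 -0.02 (SE 0.07) and its target Vcam1 -0.01 (SE 0.08). Of 27 immediate early genes 2 were higher (median 0.04): Zfp36, which destabilises cytokine transcripts (22.2 and 21.1 against 37.5 and 35.6 CPM, 0.76, SE 0.12), and the phosphatase Dusp5 (0.41, SE 0.08), whose call was lost without WT 2 h replicate 1 (adjusted p = 0.472) or KO 2 h replicate 2 (adjusted p = 0.0720). Of 17 cell death genes 4 were higher, namely Tnfsf10, Xaf1, Casp4 and Mlkl. Tnfsf10 and Xaf1 also stand in the interferon lists. Xaf1, an antagonist of inhibitors of apoptosis, stood at 6.80 and 7.22 against 108 and 90.2 CPM (3.82, SE 0.17). Casp4, the caspase of the non-canonical inflammasome, gave 0.68 (SE 0.12) and Mlkl, the executor of necroptosis, 0.45 (SE 0.08); without WT 2 h replicate 2 neither passed (adjusted p = 0.0678 and 0.109).

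None of the tested genes passed among 28 of the extracellular matrix, 27 of DNA replication, 23 of mitosis, 25 of sterol and fatty acid synthesis, 32 ribosomal proteins, 24 of the respiratory chain, 18 of glycolysis, 16 of the integrated stress response, 17 p53 targets and 20 contractile genes. Over all tested genes 1.6% passed, so that the lack of a call does not set a list of this size apart. The medians of these lists ran from -0.04 for mitosis to 0.05 for the matrix. Col1a1, which encodes a chain of fibrillar collagen, stood at 865 and 990.4 CPM under the WT label and at 946 and 951 CPM under the KO label, with overlap. Of 14 Nrf2 targets only Hmox1, the heme-degrading oxygenase, was higher (0.36, SE 0.08, adjusted p = 0.0187), and that call was lost without WT 2 h replicate 1, WT 2 h replicate 2 or KO 2 h replicate 1 (adjusted p = 0.433, 0.175 and 0.459). Of 20 genes of histone H3 variants and their methylation, the group closest to the known role of Zmynd11, only the chaperone Daxx was higher (42.7 and 40.8 against 167 and 169 CPM, log2 fold change 2.01, SE 0.08, adjusted p = 1.16e-14). Daxx also stands in the Parp and Trim list as an interferon-induced gene. The histone gene H3f3b gave 0.01 (SE 0.08) and the methyltransferase gene Whsc1 -0.01 (SE 0.07).

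No cell type marker tested was called, where 1.6% of all tested genes were. The 9 fibroblast markers, among them Col1a2, Vim and Fn1, were all detected and none was called, with summed levels of 18600 and 19720 CPM with the WT label at 2 h and 20530 and 18990 CPM with the KO label. Of 9 macrophage and leukocyte markers 8 matched the files, none of them at 0 and none called, and their summed levels were 71.6 and 73.2 CPM against 57.1 and 91.2 CPM, so that the KO-labelled libraries lay on both sides of the WT-labelled ones. Lyz2 made up most of this sum (36.9 and 36.8 against 29.1 and 51.5 CPM). Of 9 markers of T, B and NK cells none had enough reads to be tested and 5, Cd3e among them, had no reads in the 4 libraries. None of 5 tested endothelial and 2 tested epithelial markers was called.

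The same labels were compared in the libraries labelled 0 h, which share no library with the 2 h comparison. At 0 h, 339 of 12807 genes were higher (2.65%) and 163 lower (1.27%) under the KO label. Of the 204 genes higher at 2 h, 164 were also higher at 0 h and none was lower there. These 164 are 80.4% of the 2 h list and 48.4% of the 0 h list. The difference was larger at 2 h for 81 of the 164 and larger at 0 h for 83. A further 40 genes passed at 2 h and not at 0 h, and 175 at 0 h and not at 2 h, which by itself does not show a difference between the times.

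The order of the 4 groups was read for the 204 genes as a description. The mean level was highest in KO 2 h for 152 genes, in KO 0 h for 51 and in WT 0 h for 1, Atp10a, whose call at 2 h (adjusted p = 0.0420) was lost in 8 settings. It could not be highest in WT 2 h, since the 204 genes were chosen as higher in KO 2 h than there. The mean of KO 0 h lay above that of WT 2 h for 165 of the 204 genes, although by label only the latter had received IFN-β. The choice of genes low in WT 2 h favours such counts, and the shares over all tested genes were not computed. Isg15 is an example, at 4.80 ± 0.504 CPM in WT 0 h, 67.4 ± 4.28 in KO 0 h, 3.56 ± 0.0742 in WT 2 h and 72.5 ± 2.27 in KO 2 h (mean ± SD, n = 2 each). WT 2 h was above WT 0 h for 134 of the 204.

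The difference between the 2 contrasts was tested gene by gene, as the contrast at 2 h minus that at 0 h. It passed for 17 of 12807 genes (0.133%), 7 with a higher signed value at 2 h and 10 with a lower one, and 14 of the 17 were among the 204. At an unadjusted p under 0.05 there were 1637. Of those 10, 6 were members of the GTPase list: Irgm1, Irgm2, Igtp, Gbp4, Gbp9 and Gbp11. Gbp9 stood at 2.33 ± 0.598 CPM in WT 0 h, 16.5 ± 1.89 in KO 0 h, 74.6 ± 0.574 in WT 2 h and 163 ± 5.37 in KO 2 h, so that here WT 2 h lay above KO 0 h (interaction -1.69, SE 0.19, adjusted p = 6.15e-05). Irgm2 stood at 0.587 ± 0.275, 131 ± 10.4, 4.46 ± 0.255 and 206 ± 4.52 CPM in that order, with KO 0 h far above WT 2 h (interaction -2.25, SE 0.28, adjusted p = 2.43e-04).

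The genes with a higher signed value at 2 h included an Oas gene, a chemokine and transcription factors. Oas3 stood at 0.857 ± 0.177 CPM in WT 0 h, 2.66 ± 0.0170 in KO 0 h, 0.851 ± 0.211 in WT 2 h and 14.8 ± 2.96 in KO 2 h (interaction 2.48, SE 0.47, adjusted p = 0.0216). Ccl2 was lower under both 2 h labels than at 0 h, at 94.95 ± 4.39, 173 ± 1.64, 6.67 ± 0.557 and 22.8 ± 2.73 CPM in that order (interaction 0.89, SE 0.15, adjusted p = 0.00936). Oas3 did not pass without WT 2 h replicate 1, WT 2 h replicate 2 or WT 0 h replicate 2 (adjusted p = 0.297, 0.0587 and 0.239), nor Ccl2 without WT 2 h replicate 1 or replicate 2 (adjusted p = 0.107 and 0.0773). For the orphan receptor Nr4a1 and the transcription factor Snai1 the KO label was lower at 0 h (log2 fold changes -0.70 and -0.64), and neither passed at 2 h (0.05 and 0.13). The number of interaction calls depended on single libraries: 6 without WT 2 h replicate 1, 9 without WT 0 h replicate 2, 35 without KO 2 h replicate 2, 30 without KO 0 h replicate 2 and 91 without KO 0 h replicate 1.

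**Figure D4:**
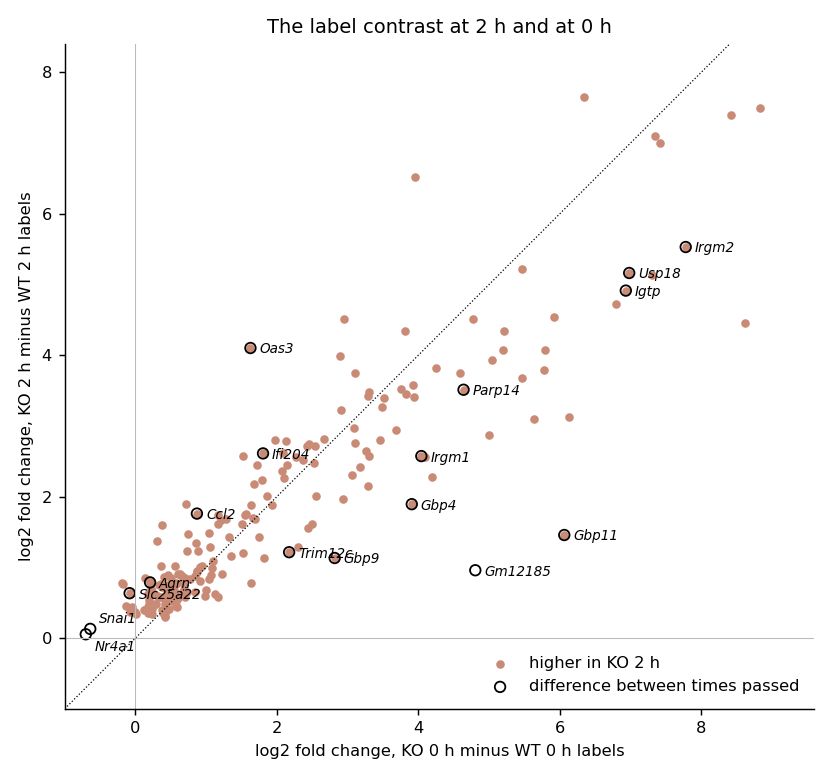
Log2 fold change between the KO and WT labels at 2 h (vertical axis) against that at 0 h (horizontal axis) for the 204 genes higher at 2 h (points); rings mark the 17 genes for which the difference between the times passed, 14 of them among the 204, and the dotted line marks equal values. The GTPases Irgm1, Irgm2, Igtp, Gbp4, Gbp9 and Gbp11 lie below the line, and Oas3, Ccl2 and Ifi204 above it.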

How the data were processed

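RNA of 8 NIH3T3 libraries was sequenced paired-end; per the labels' protocols it was extracted with TRIzol and libraries were built on a NeoPrep station. The authors deposited raw counts, as whole numbers for each symbol. The tools named are STAR 2.5.2b, HTSeq, bcl2fastq 2.15 and the build mm9, per the submitters' processing notes; their roles, the annotation and strand: not given in the sources used here. Tables held 23304 symbols. Summary lines, 36.9 to 43.2% of reads, entered neither library sizes nor tests; they include reads with several map positions.

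Counts were analysed in R 4.3.3 with edgeR 4.0.16: filterByExpr with a minimum count of 10 and a total of 15 (12807 genes), TMM scaling, and a robust quasi-likelihood fit with 1 coefficient per group over 8 libraries, 4 residual degrees of freedom and a biological coefficient of variation of 6.74%. CPM (reads of a gene per total reads, scaled up) use the TMM-scaled library sizes. P-values were adjusted by Benjamini-Hochberg over all tested genes. Group, replicate and time came from the labels. Replicates differed beyond sampling noise (chi-square over degrees of freedom 3.04 to 9.64) and were kept as separate samples. The fit was also run on counts simulated from its own estimates of level and spread, which checks the code and not the calls.

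Of 35 gene lists, 12 concern interferon. Lists are described by counts and medians. Named by rule were the 15 largest called changes in each direction with at least 1 CPM and no overlap, the 6 largest interactions in each direction, up to 8 members of each interferon list and 3 of each other list, and up to 5 genes without reads in a group. A few of these genes are not reported here. Genes named beyond the rule (Oasl1, Oas1a, Oas2, Ifit2, Ifitm2, Ifitm3, Bst2, Mavs, Ifih1, Aim2, Zbp1, H2-T22, H2-T23, H2-K1, B2m, Gbp9, Mlkl, Col1a1, Cxcl9, Cxcl11, Agrn, Atp10a, Cd3e and others in runs of neighbours) were chosen after their values were seen. Members and lists were chosen with earlier results of these data known. Promoters were searched in Python 3.11.15 on both strands; gene order and promoters come from RefSeq on GRCm38.p6, not the build of the counts. Alternatives were RLE factors, unscaled library sizes, a 1 CPM filter in 2 libraries, no filter, a replicate block, DESeq2 1.42.0, a fold of 1.5, the 4 libraries alone and leaving out each library.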

Additional observations from a re-analysis of the deposited data

Results flagged for a closer look

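For 17 genes the difference between the KO and WT labels was not the same at 2 h and at 0 h by the test of that difference (edgeR interaction, adjusted p under 0.05). Values are the log2 fold change at 2 h minus that at 0 h. The signed value was lower at 2 h for Gbp11 (-4.61), Gm12185 (-3.85), Irgm2 (-2.25), Igtp (-2.02), Gbp4 (-2.01), Usp18 (-1.82), Gbp9 (-1.69), Irgm1 (-1.47), Parp14 (-1.13) and Trim12c (-0.96). It was higher at 2 h for Oas3 (2.48), Ccl2 (0.89), Ifi204 (0.81), Snai1 (0.77), Nr4a1 (0.76), Slc25a22 (0.72) and Agrn (0.58). For Snai1 and Nr4a1 the contrast at 0 h was negative (-0.64 and -0.70) and that at 2 h did not pass (0.13 and 0.05).

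Gm12185 stood at 0.244 ± 0.207 CPM in WT 0 h, 7.05 ± 1.08 in KO 0 h, 1.61 ± 0.315 in WT 2 h and 3.12 ± 0.260 in KO 2 h (n = 2 each). Slc25a22, a mitochondrial carrier gene, stood at 40.8 ± 0.214, 38.6 ± 3.29, 40.8 ± 4.88 and 63.2 ± 1.80 CPM, and Agrn at 165 ± 3.48, 190.4 ± 6.49, 77.4 ± 3.82 and 134 ± 1.14 CPM in the same order. Gbp4, Gbp9, Irgm1 and Irgm2 passed in each of 15 alternative settings, and the other 13 were lost in at least 1. The value of Gbp11, the largest in size, rests on 0 and 0.0491 CPM in WT 0 h. Its interaction did not pass with DESeq2 (adjusted p = 0.146).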

How the results depend on the processing

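The count of 205 genes between the labels at 2 h stayed within 1.5 times in other settings (leave-one-out 147 to 220) except against a fold of 1.5, where it was 111. No called gene changed direction in any setting. The 1 lower gene became 0 with the fold of 1.5 and in the fit of the 4 libraries, 2 without a filter, and 0 to 5 when single libraries were left out. The 17 interaction calls became 33 with DESeq2, 113 without a filter, 5 with the fold of 1.5, and 6 to 91 when single libraries were left out. The share of matched promoters with the ISRE core, 34.6%, was 17.3% with a longer ISRE motif. The cause was not tested, apart from the stricter fold and motif. With the replicate number as a block, 193 genes were called at 2 h and 15 for the interaction. Same-numbered libraries did not deviate together (correlations of -0.053 to -0.0053), so the numbers are not treated as pairs. Where a group kept 1 library, it was assumed to vary like the others. Of the 205 genes, 69 were lost in at least 1 setting other than the fold of 1.5. That each group held 2 libraries limits what small changes can be detected, and genes near 10 reads carry large errors.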
